A study of Homo sapiens with 12 samples.

Results

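Transcript levels of prostate cancer cells treated with SMIP004 were compared directly with those of cells treated with the proteasome inhibitor bortezomib (BTZ). All biological samples that the labels title SMIP004 (2) were set against all that they title Bortezomib (2), which is 4 of the 10 biological samples measured, over 8783 genes. SMIP004, a small molecule found in a high-content cell screen, was given at 40 µM and BTZ at 50 nM for 24 h. The doses differ, so no difference given here is at a matched dose. The labels name the cells LNCaP, a human prostate adenocarcinoma line. The methods of the study name them LNCaP-S14, a derivative that stably overexpresses SKP2, the substrate-binding subunit of a ubiquitin ligase that marks the CDK inhibitor p27 for degradation. Every group therefore carries added SKP2, the vehicle-treated cells included, and neither the promoter that drives it nor whether the line is 1 clone is given in the sources used here. The labels give the time only for SMIP004, and the methods give it for all compounds. The other 6 samples were vehicle (DMSO), 500 nM camptothecin (CPT, a topoisomerase inhibitor) and 20 µM roscovitine (a CDK inhibitor), with 2 samples each. They entered the same model and served as within-slide references.

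Both compounds touch the handling of damaged proteins. The proteasome is a barrel of peptidases, the core, closed at its ends by regulatory particles that recognize and unfold ubiquitin-tagged proteins. BTZ binds a peptidase site of the core. Unfolded protein in the cytosol frees the heat shock factor HSF1, which binds heat shock elements and drives Hsp70, Hsp90, their J-domain and BAG partners and the small heat shock proteins, while loss of proteasome activity stabilizes the factor NRF1 (NFE2L1), which drives the proteasome genes themselves. Unfolded protein in the endoplasmic reticulum (ER) instead triggers the unfolded protein response (UPR). Its sensors ATF6 and IRE1 (through XBP1) raise ER chaperones, translocation, glycosylation and degradation genes, and its sensor PERK raises ATF4 and CHOP (DDIT3) and through them amino acid synthesis and transport. The direct comparison asks which of these programmes differ between the compounds.

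RNA was measured on Illumina bead arrays, on which a probe's brightness reports the amount of its transcript. Levels are given as normalised log2 intensities per biological sample, with n = 2 per group. Differences are SMIP004 minus BTZ on the log2 scale, so a negative difference is a higher level with BTZ. Errors are standard errors from 1 limma model of all 10 samples, and adjusted p-values are Benjamini-Hochberg values over all genes, with a threshold of 0.05. A fold understates the change of dim probes, because an offset was added before logarithms were taken. Where a probe was detected on no array of 1 group, the fold is given as "at least", where its level on such an array was set to the dimmest detected probe there, or to its own signal if that was brighter. The labels call the samples biological replicates but do not say how separate their cultures were, so p-values measure the spread between these samples. In bulk RNA, fewer cells of a state and less RNA per cell cannot be told apart.

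The SMIP004 and DMSO samples lay on 1 slide and the BTZ, CPT and roscovitine samples on the other, so in the direct comparison the compound and the slide cannot be told apart. For that reason 2 comparisons that each stay within a slide are given beside it, SMIP004 minus DMSO and BTZ minus CPT, and these share no sample. Every slide 1 sample was above every slide 2 sample for 259 of 8783 genes and below for 291. The threshold was passed by 415 of these, which is 9.62% of all that did. This share does not size a slide effect, which need not set all samples apart, and the size of such an effect was not tested. Of the genes tested, 6979 were detected on at least 1 array of each group, 832 on no BTZ array, 189 on no SMIP004 array and 783 on no array of either. Of these 783, 156 passed the threshold, although they have no measured level with either compound. The arrays averaged 473.1 to 801.7 in intensity, with 8737 to 9909 probes detected. The BTZ arrays had the fewest (8927 and 8737). Their dimmest detected probes stood at 6.781 and 6.879, against 6.388 to 6.443 on the SMIP004 arrays, so a gene needed a higher level to be detected with BTZ. The SD of the difference between the 2 samples of a group was 0.13 for SMIP004, 0.21 for BTZ and up to 0.224 for DMSO and CPT. Each SMIP004 sample is a mean of 2 arrays and each other sample is 1 array, so 0.13 is not a like measure. Between the 2 arrays of SMIP004 samples 1 and 2 that SD was 0.138 and 0.162. Between the roscovitine samples it was 0.766, and their spread enters every error. Without the roscovitine samples 6127 genes passed rather than 4312. Of the luminal prostate markers, KRT8 (11.41 and 11.35 with SMIP004, 11.15 and 10.97 with BTZ), FOLH1, TMPRSS2 and HOXB13 were detected on every array of both groups, and EPCAM on 2 of 4 SMIP004 and 1 of 2 BTZ arrays. KLK3, which encodes PSA, and KLK2 were detected on DMSO arrays but on no array of either compound, and neither was KRT18. Of 8 fibroblast, 8 leukocyte, 6 endothelial and 6 basal or neuroendocrine markers, 2, 3, 1 and 0 could be tested.

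The compounds differed in 4312 of 8783 genes (49.1%), 2157 higher with SMIP004 (24.6%) and 2155 higher with BTZ (24.5%). At least 2-fold differences past the threshold numbered 1068 toward SMIP004 (12.2%) and 808 toward BTZ (9.2%), and 54.61% of all genes lay within 1.5-fold. The 2 samples of one group lay wholly above or below the 2 of the other for 85.8% of genes, so separation of the samples on its own marks no gene. The median difference over all genes was -0.0216. When the arrays were scaled to 1 median instead of quantile-normalised, 3917 genes passed, of which 68% rather than 50% were higher with SMIP004, and the median moved to 0.17. Small differences toward BTZ are therefore relative to that choice. Every list below is read against 24.6% and 24.5%.

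**Figure D1:**
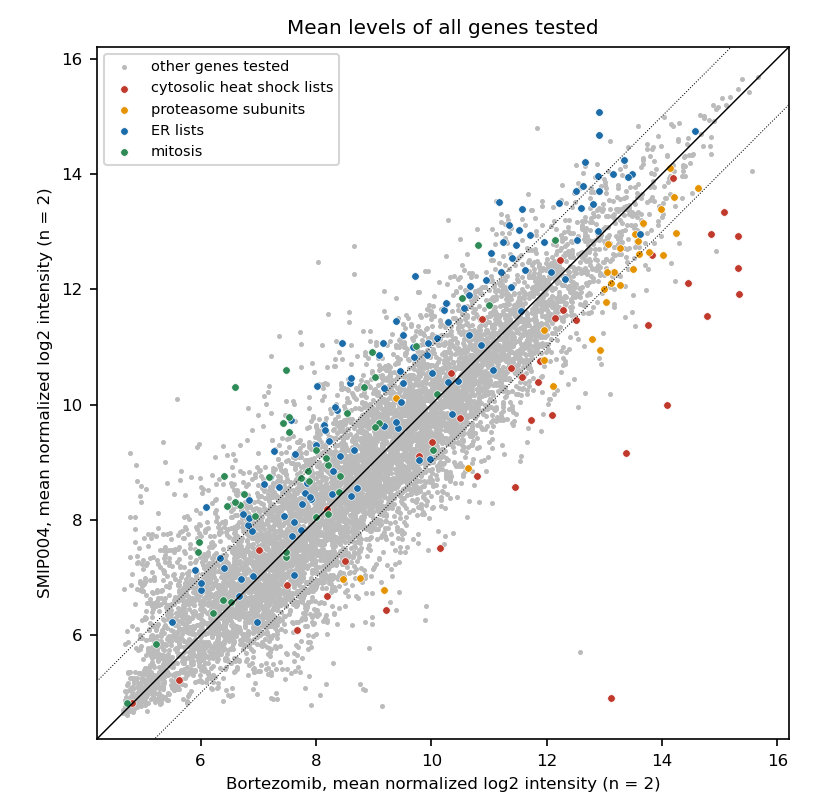
Mean normalised log2 intensity of all 8783 genes with BTZ (x axis) and SMIP004 (y axis), n = 2 samples each. Dotted lines mark 2-fold. The cytosolic heat shock lists and proteasome subunits lie mostly below the diagonal, and the ER lists and mitosis genes mostly above it.

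Cytosolic chaperones stood farthest toward BTZ. Of 9 Hsp70, Hsp110 and Hsp90 genes, 7 were higher with BTZ, 0 higher with SMIP004 and 2 did not pass, with a median difference of -2.39. Of 12 J-domain cochaperones 8 were higher with BTZ (median -1.18), and of 14 BAG factors and other cochaperones 11 were (median -1.07) and 1, BAG5, was higher with SMIP004. The BAG5 difference of 0.61 (adjusted p = 0.00856) was 0.10 by its second brightest probe (adjusted p = 0.638) and 0.36 by the mean of its probes (adjusted p = 0.0574), and the call was lost without SMIP004 sample 1 (adjusted p = 0.0599) or BTZ sample 2 (adjusted p = 0.0578). HSPH1, the Hsp110 that recharges Hsp70 with ATP, measured 9.98 and 10.01 with SMIP004 and 14.11 and 14.06 with BTZ. Both BTZ samples lay far above both SMIP004 samples, a 17-fold difference (log2 difference -4.09, standard error 0.11, adjusted p = 1.15e-06). The J-domain protein DNAJB1, which delivers substrates to Hsp70, measured 9.12 and 9.21 with SMIP004 and 13.51 and 13.25 with BTZ, 18.6-fold higher with BTZ (log2 difference -4.22, standard error 0.169, adjusted p = 3.88e-06). Inducible Hsp70 was read by a probe assigned to HSPA1B, which is nearly identical to its neighbour HSPA1A, so the copies are not told apart. It measured 11.88 and 11.97 with SMIP004 and 15.54 and 15.13 with BTZ (log2 difference -3.41, standard error 0.238, adjusted p = 3.1e-05). BAG3, which couples Hsp70 to autophagy of aggregates, measured 11.61 and 11.47 with SMIP004 and 14.63 and 14.94 with BTZ (log2 difference -3.24, standard error 0.218, adjusted p = 2.77e-05). HSP90AB1, the constitutive cytosolic Hsp90, and HSPA8, the constitutive Hsc70, differed 7.73-fold and 5.24-fold. Their levels were 12.42 and 12.32 with SMIP004 against 15.32 and 15.32 with BTZ for HSP90AB1, and 12.88 and 12.97 with SMIP004 and 15.26 and 15.36 with BTZ for HSPA8.

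Against vehicle, several of these genes fell with SMIP004 and rose with BTZ. HSPH1 measured 11.67 and 11.64 in DMSO samples, so it lay below vehicle with SMIP004 (SMIP004 minus DMSO -1.66, adjusted p = 1.66e-05) and above it with BTZ (BTZ minus DMSO 2.43, adjusted p = 4.13e-06). For DNAJB1 these values were -0.92 and 3.29, for HSP90AB1 -1.12 and 1.83, and for HSPA8 -1.47 and 0.91, all past the threshold. BAG3 and DNAJB4 instead were above vehicle with both. BAG3 stood at 0.91 with SMIP004 and 4.15 with BTZ. Both of these comparisons use the same DMSO samples, and for BTZ they cross slides. Within slides, 0 of the 9 Hsp70, Hsp110 and Hsp90 genes rose and 5 fell with SMIP004 against DMSO, where 28.7% of all genes rose and 29.9% fell (58.6% in all). Of the same 9, 8 were higher and 1 lower with BTZ than with CPT, where 32.8% of all genes were higher and 32.7% lower (65.5% in all). The BTZ to DMSO comparison called 64.5% of all genes, 31.7% up and 32.8% down.

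The small heat shock proteins held the largest difference of all genes tested. CRYAB, the αB-crystallin holdase that keeps unfolded proteins soluble, was detected on no SMIP004 array (4.90 and 4.93) and on both BTZ arrays (13.12 and 13.10). It was at least 103-fold higher with BTZ (adjusted p = 1.15e-06), and DMSO samples measured 4.87 and 4.91, also undetected. CPT samples, on the BTZ slide, lay between at 10.14 and 10.38 (BTZ minus CPT 2.85, adjusted p = 1.68e-05). HSPB8, which works with BAG3, measured 6.44 and 6.44 with SMIP004 (detected on 3 of 4 arrays) and 9.32 and 9.09 with BTZ, 6.81-fold higher (log2 difference -2.77, standard error 0.157, adjusted p = 1.56e-05). HSPB1 (Hsp27), a holdase present in most cells, measured 12.98 and 12.94 with SMIP004 and 14.76 and 14.95 with BTZ (log2 difference -1.90, standard error 0.179, adjusted p = 0.000115). In all, 4 of 5 members passed toward BTZ, but HSPB2 among them was detected on no array of either compound and has no measured level here, and its call was lost without any 1 SMIP004 or BTZ sample (adjusted p between 0.0957 and 0.194). The cytosolic chaperonin, which folds actin and tubulin, leaned the same way. Of 16 chaperonin and prefoldin genes 12 were higher with BTZ (median -0.756), led by CCT3 (11.72 and 11.48 with SMIP004, 13.52 and 13.45 with BTZ), and 1, the testis-type subunit CCT6B, was 4.48-fold higher with SMIP004. The count of 12 was 7 or 8 without a SMIP004 or BTZ sample and 8 with scaling to 1 median.

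The promoters of 2 of these genes are printed because the HSF1 motif stands in them in its full 3-unit form, GAANNTTCNNGAA or TTCNNGAANNTTC, searched on both strands. Windows run from 250 bases before to 50 after the annotated start and come from RefSeq (GRCh38.p14), which had a window for 7366 of the 8783 genes (83.9%). The motif was in 37.5% of the Hsp70, Hsp110 and Hsp90 genes with a window (3 of 8: HSP90AA1, HSP90AB1 and HSPA8) and in 16.7% of J-domain genes (2 of 12: DNAJA1 and DNAJB6), against 0.502% of all genes tested and 0.608% of all genes in the table. It was in 0 of 3 small heat shock and 0 of 11 BAG list genes with a window. The shorter 2-unit form, GAANNTTC or TTCNNGAA, which lies inside the longer one, was in 75% (6 of 8), 41.7% (5 of 12), 66.7% (2 of 3) and 18.2% (2 of 11) of those lists and in 14.2% of all genes tested (16.2% of the table). A match is letters in a window and not a measured binding site. HSP90AB1 has 3 annotated starts, of which the window at chr6:44247693-44247992 (plus strand) holds 2 matches, and HSPA8 at chr11:123062087-123062386 (minus strand) also holds 2. Capitals mark the matches, 5′ to 3′ along the gene.
HSP90AB1: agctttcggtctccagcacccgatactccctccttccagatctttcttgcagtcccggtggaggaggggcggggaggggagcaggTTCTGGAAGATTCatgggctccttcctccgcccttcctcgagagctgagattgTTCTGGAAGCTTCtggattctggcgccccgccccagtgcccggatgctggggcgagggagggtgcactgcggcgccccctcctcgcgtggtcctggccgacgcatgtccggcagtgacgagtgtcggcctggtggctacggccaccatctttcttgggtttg
HSPA8: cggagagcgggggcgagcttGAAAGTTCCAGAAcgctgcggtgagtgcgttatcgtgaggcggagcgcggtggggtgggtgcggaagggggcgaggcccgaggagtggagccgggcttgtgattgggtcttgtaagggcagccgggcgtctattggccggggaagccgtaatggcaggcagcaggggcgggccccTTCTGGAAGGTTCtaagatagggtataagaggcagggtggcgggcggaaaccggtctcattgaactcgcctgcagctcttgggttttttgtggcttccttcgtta

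**Figure D2:**
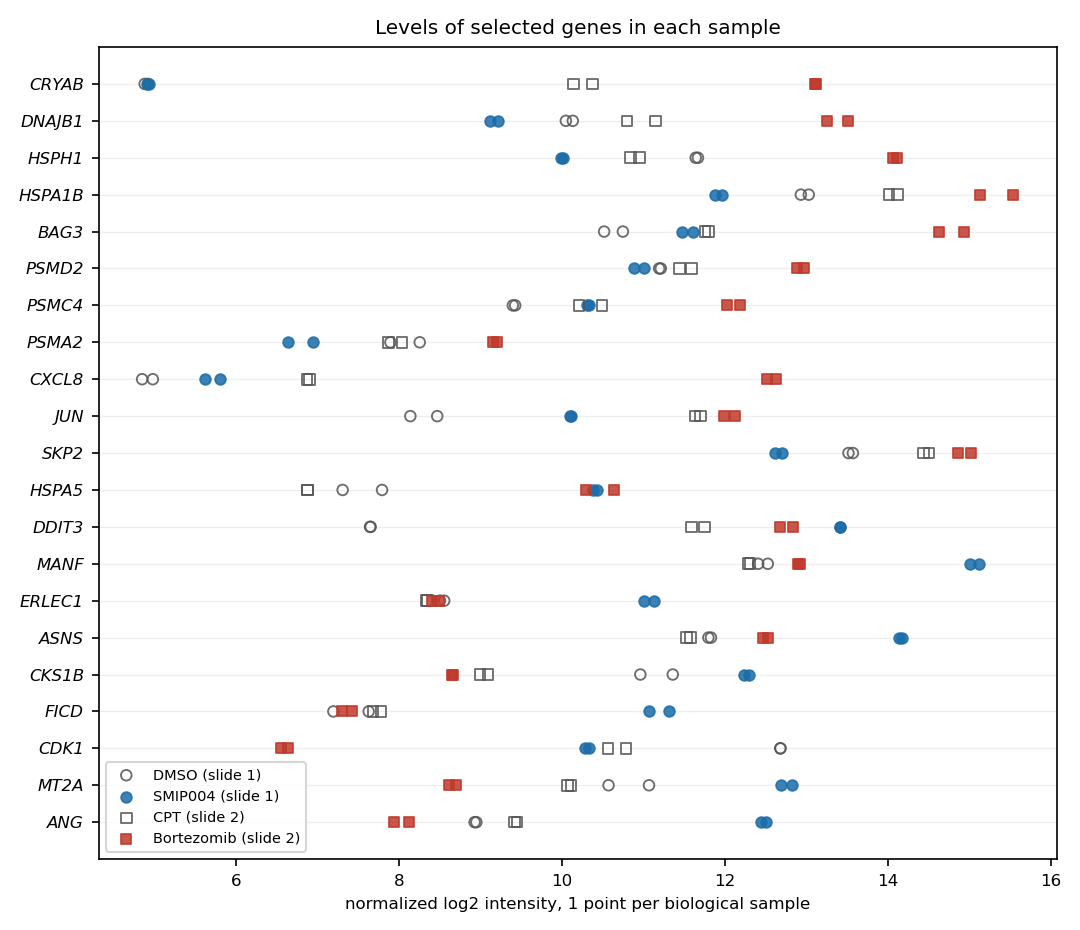
Normalised log2 intensity (x axis) of selected genes (y axis) in each biological sample. Filled symbols are SMIP004 and BTZ, open symbols DMSO and CPT, circles slide 1 and squares slide 2. CRYAB lies near 4.9 in the SMIP004 and DMSO samples and near 13.1 with BTZ, whereas HSPA5 lies between 10.29 and 10.64 with both compounds.

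The proteasome's own genes were higher with BTZ almost throughout. Of 16 regulatory particle subunits 15 were higher with BTZ and 0 with SMIP004 (median -1.19), and of 14 core subunits 12 were higher with BTZ and 1 with SMIP004 (median -0.817). PSMD2, a scaffold subunit of the regulatory particle that docks ubiquitin receptors, measured 11.01 and 10.88 with SMIP004 and 12.97 and 12.89 with BTZ (log2 difference -1.98, standard error 0.132, adjusted p = 2.72e-05). PSMC4, one of its ATPases, measured 10.31 and 10.32 with SMIP004 and 12.19 and 12.03 with BTZ, 3.45-fold higher with BTZ. The groups did not overlap for either gene. Among core subunits PSMA2 measured 6.94 and 6.63 with SMIP004 and 9.20 and 9.15 with BTZ (log2 difference -2.39, standard error 0.225, adjusted p = 0.000113). PSMB5, the peptidase subunit to which BTZ binds, measured 11.86 and 11.69 with SMIP004 and 13.05 and 13.01 with BTZ, 2.38-fold higher with BTZ. The core subunit PSMA5 did not pass, with 14.09 and 14.10 with SMIP004 and 14.17 and 14.12 with BTZ and a difference of -0.05 (95% interval -0.32 to 0.22).

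Slide 2 holds no vehicle, so the comparison of BTZ with CPT there does not tell which of the 2 moved. Within slide 1, 10 of 16 regulatory subunits were higher with SMIP004 than with DMSO and 0 lower, and within slide 2, 15 were higher with BTZ than with CPT and 0 lower. PSMC4 lay 0.91 above vehicle with SMIP004 and 2.70 with BTZ. The core divided under SMIP004, with 4 subunits above DMSO and 5 below, whereas with BTZ 13 lay above CPT and 1 below. Activators and assembly factors did not follow. Of 12 of these, 5 were higher with SMIP004 and 2 with BTZ (median 0.29), and the 5 were 1 to 3 whenever a SMIP004 or BTZ sample was left out. Ubiquitin genes and the machinery that extracts tagged proteins were again toward BTZ, with 17 of 31 higher there and 6 higher with SMIP004 (median -0.524), and the 17 were 11 without SMIP004 sample 2. ZFAND2A, a proteasome-associated zinc finger protein also known as AIRAP, measured 10.57 and 10.85 with SMIP004 and 12.98 and 12.92 with BTZ (log2 difference -2.24, standard error 0.212, adjusted p = 0.000116), and 8.29 and 8.15 with DMSO. NPLOC4 and UFD1, the pair that brings ubiquitin chains to the p97 segregase, were 3.67-fold and 3.33-fold higher with BTZ. The deubiquitinase gene UCHL5 went the other way, with 11.85 and 11.93 with SMIP004 and 10.52 and 10.22 with BTZ (log2 difference 1.52, standard error 0.147, adjusted p = 0.000129). The antioxidant response element core TGACNNNGC, the motif NRF1 shares with NRF2, was in 40% of regulatory subunit promoters (6 of 15) and 18.2% of core ones (2 of 11), against 20.2% of genes tested and 16.1% of the table.

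**Figure D3:**
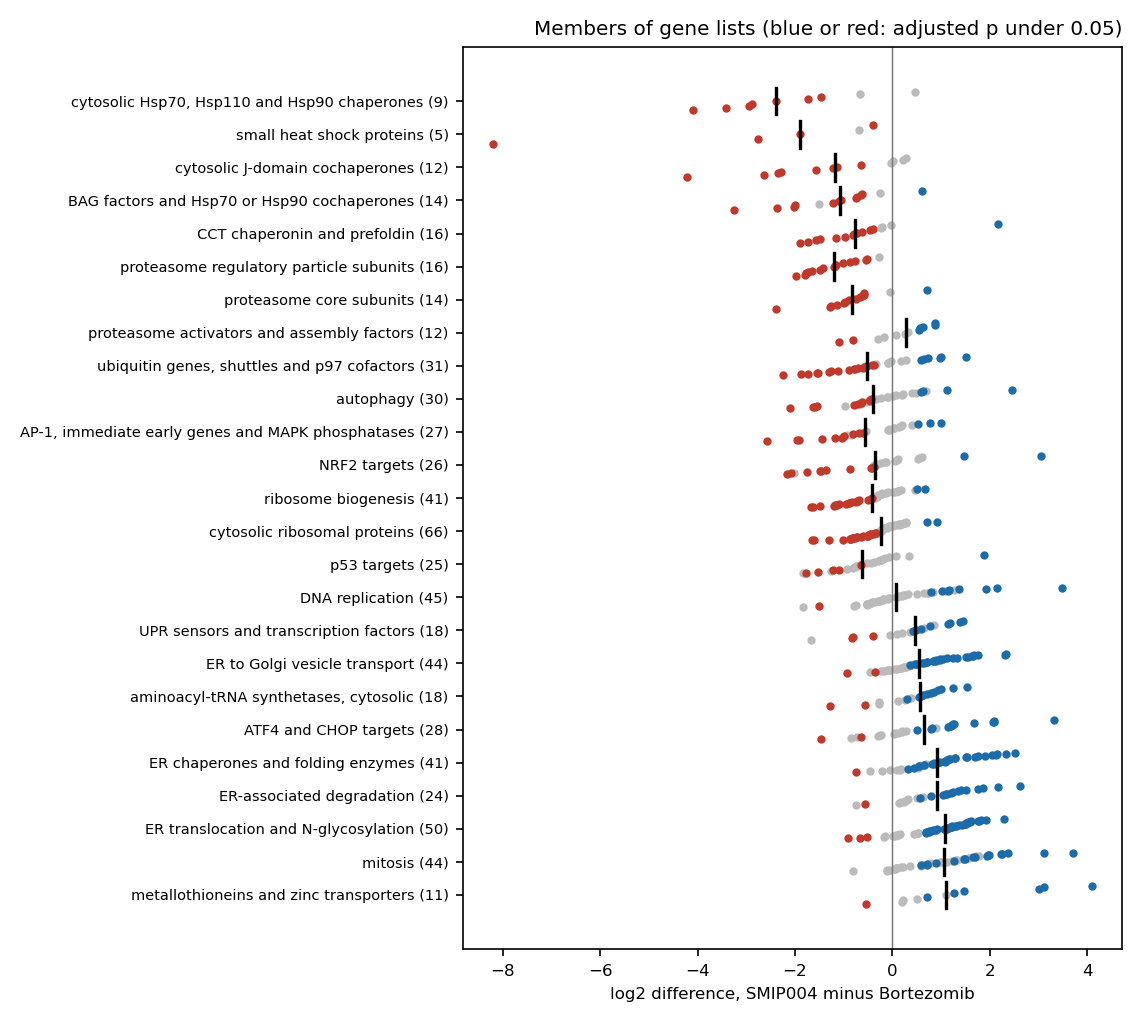
Log2 difference, SMIP004 minus BTZ (x axis), of each member of 25 gene lists (y axis, number of genes tested in brackets). Blue points passed toward SMIP004, red toward BTZ and grey did not pass, and black bars are list medians, which run from -2.39 for the Hsp70, Hsp110 and Hsp90 genes to 1.11 for the metallothionein list.

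CXCL8 had the largest bound toward BTZ after CRYAB. This gene of the neutrophil chemokine interleukin-8, a target of NF-κB and AP-1, was undetected with SMIP004 (5.79 and 5.62) and measured 12.51 and 12.63 with BTZ, at least 71.2-fold higher (adjusted p = 3.88e-06). CPT samples on the BTZ slide measured 6.86 and 6.90 (BTZ minus CPT 5.69, adjusted p = 2.09e-06). Of 27 NF-κB, interferon and antigen presentation genes 8 were higher with BTZ and 4 with SMIP004, and with scaling to 1 median 3 and 6, so the list has no settled direction. NFKB2, a subunit of NF-κB, was 3.3-fold higher with BTZ, whereas the interferon-induced exonuclease ISG20 measured 12.84 and 12.90 with SMIP004 and 10.48 and 10.52 with BTZ (log2 difference 2.36, standard error 0.332, adjusted p = 0.000788). Its level in DMSO samples was 7.30 and 7.32, below both. The matrix metalloprotease gene MMP12 was undetected with SMIP004 (4.80 and 4.75) and measured 9.05 and 9.23 with BTZ, at least 6.6-fold higher. The NF-κB motif GGAANTTCC was in 14.3% of the list's promoters (3 of 21: CXCL8, NFKB1 and NFKBIB), against 1.3% of genes tested and 1.16% of the table. The CXCL8 window at chr4:73740319-73740618 (plus strand) is printed with its match in capitals, since it differed most in the list.
CXCL8: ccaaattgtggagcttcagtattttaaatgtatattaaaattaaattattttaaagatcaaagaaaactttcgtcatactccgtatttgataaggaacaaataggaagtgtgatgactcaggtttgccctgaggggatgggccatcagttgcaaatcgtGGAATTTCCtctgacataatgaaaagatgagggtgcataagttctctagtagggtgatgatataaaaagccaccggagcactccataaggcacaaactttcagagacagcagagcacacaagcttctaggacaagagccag

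Of 27 AP-1, immediate early and MAPK phosphatase genes 10 were higher with BTZ and 3 with SMIP004 (median -0.558), the 3 being 0 to 2 without a SMIP004 or BTZ sample. JUN, a subunit of AP-1, measured 10.11 and 10.10 with SMIP004, 12.13 and 11.99 with BTZ and 8.14 and 8.47 with DMSO (log2 difference -1.95, standard error 0.366, adjusted p = 0.00306 between the compounds), so both compounds lay above vehicle and BTZ above SMIP004. DUSP1, the phosphatase that switches off JNK and p38, measured 10.27 and 10.25 with SMIP004 and 12.20 and 12.14 with BTZ (log2 difference -1.91, standard error 0.377, adjusted p = 0.00391). FOSL1, another AP-1 subunit, was undetected with SMIP004 (5.34 and 5.25) and measured 7.84 and 7.91 with BTZ, at least 2.74-fold higher, but CPT samples were higher still (8.98 and 9.24). Genes of cell death and survival divided. Of 30, 11 were higher with BTZ, among them the pore-forming BAX (8.50 and 8.29 with SMIP004, 10.27 and 10.07 with BTZ) and its activator BID, undetected with SMIP004 and at least 2.29-fold higher with BTZ. The 6 higher with SMIP004 included TRADD, an adaptor of TNF receptors (9.07 and 8.98 with SMIP004, 7.58 and 7.39 with BTZ), and they were 2 whenever a SMIP004 or BTZ sample was left out.

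Genes of the ER were the counterpart on the SMIP004 side. Of 41 ER chaperones and folding enzymes 30 were higher with SMIP004, 1 (CANX, the calnexin gene) was higher with BTZ and 10 did not pass, with a median of 0.912. FKBP11, a prolyl isomerase of secretory cells, measured 12.23 and 12.23 with SMIP004 and 9.64 and 9.78 with BTZ (log2 difference 2.52, standard error 0.237, adjusted p = 0.000112). PRDX4, the peroxiredoxin of the ER, measured 13.48 and 13.54 with SMIP004 and 11.17 and 11.17 with BTZ, 5.06-fold higher with SMIP004 (log2 difference 2.34, standard error 0.106, adjusted p = 6.16e-06). MANF, a secreted ER stress factor, measured 15.12 and 15.01 with SMIP004 and 12.93 and 12.90 with BTZ (log2 difference 2.15, standard error 0.132, adjusted p = 1.87e-05). DNAJC10, an ER J-domain reductase, was 4.15-fold higher with SMIP004, and the sulfhydryl oxidase gene QSOX1 was at least 2.61-fold higher, undetected on both BTZ arrays. Within slides, 34 of the 41 were higher with SMIP004 than with DMSO and 0 lower, and 30 were higher with BTZ than with CPT and 5 lower.

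HSPA5 (BiP), the Hsp70 of the ER, measured 10.39 and 10.43 with SMIP004 and 10.64 and 10.29 with BTZ, with DMSO at 7.30 and 7.79. Both compounds lay far above vehicle, their samples overlapped, and the difference was -0.06 (95% interval -0.47 to 0.36, adjusted p = 0.828). DNAJC3, an ER cochaperone that also restrains PERK, measured 10.40 and 10.38 with SMIP004 and 10.39 and 10.18 with BTZ, with DMSO at 6.84 and 7.11 (difference 0.10, 95% interval -0.68 to 0.89). FICD, which attaches AMP to BiP and removes it, was at the other end of the range. It measured 11.32 and 11.07 with SMIP004 and 7.30 and 7.42 with BTZ, 14.3-fold higher with SMIP004 (log2 difference 3.84, standard error 0.345, adjusted p = 9.09e-05), and 7.19 and 7.62 with DMSO (BTZ minus DMSO -0.05, adjusted p = 0.913). ERO1B, an oxidase that feeds disulfide formation, measured 7.92 and 7.90 with SMIP004 and was undetected with BTZ (6.76 and 6.87), at least 2.11-fold higher. HSPA5 and FICD share the ER stress response element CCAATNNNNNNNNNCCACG, which ATF6 and XBP1 read. It was in 17.9% of ER chaperone promoters (7 of 39: CALR, CANX, CRELD2, ERO1B, HSP90B1, HSPA5 and PDIA6) and 0 of 18 ER degradation ones, against 0.204% of genes tested (15 genes, FICD among them) and 0.0916% of the table. The 2 windows are printed together because the same letters stand in a gene that differed and one that did not, HSPA5 at chr9:125241294-125241593 (minus strand) and FICD at chr12:108515027-108515326 (plus strand), with the match in capitals.
HSPA5: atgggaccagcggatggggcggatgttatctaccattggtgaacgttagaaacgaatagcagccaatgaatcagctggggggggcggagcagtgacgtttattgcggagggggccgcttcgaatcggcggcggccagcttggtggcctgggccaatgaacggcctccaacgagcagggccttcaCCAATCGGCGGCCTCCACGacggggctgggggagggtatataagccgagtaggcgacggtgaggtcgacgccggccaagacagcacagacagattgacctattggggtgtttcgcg
FICD: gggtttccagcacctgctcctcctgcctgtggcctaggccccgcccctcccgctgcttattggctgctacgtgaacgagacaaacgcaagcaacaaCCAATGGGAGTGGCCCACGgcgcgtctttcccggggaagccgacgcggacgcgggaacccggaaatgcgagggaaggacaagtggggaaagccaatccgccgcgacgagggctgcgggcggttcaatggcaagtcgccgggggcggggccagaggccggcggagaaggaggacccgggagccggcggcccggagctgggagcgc

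Of 50 translocation and N-glycosylation genes 35 were higher with SMIP004 and 3 with BTZ (median 1.09). GMPPB, which makes the GDP-mannose used in glycans, measured 10.35 and 10.28 with SMIP004 and 8.03 and 8.01 with BTZ (log2 difference 2.29, standard error 0.241, adjusted p = 0.000196). SSR4, a subunit of the complex beside the translocon, measured 13.35 and 13.41 with SMIP004 and 11.56 and 11.58 with BTZ (log2 difference 1.82, standard error 0.117, adjusted p = 2.29e-05), and TRAM1, a translocon-associated protein, was 3.39-fold higher with SMIP004. Within slides, 33 of the 50 rose and 5 fell with SMIP004 against DMSO, and 20 were above and 10 below CPT with BTZ. DPM3, which anchors the dolichol-mannose synthase, differed by 1.78 without a rise under SMIP004. It measured 10.43 and 10.32 with SMIP004, 10.61 and 10.54 with DMSO, 10.45 and 10.45 with CPT and 8.52 and 8.65 with BTZ, lower in the BTZ samples than in all of those.

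ER-associated degradation, which sends misfolded glycoproteins back to the cytosol, had 14 of 24 genes higher with SMIP004 and 1 with BTZ (median 0.918). ERLEC1, a lectin of this pathway, measured 11.01 and 11.13 with SMIP004, 8.40 and 8.49 with BTZ and 8.55 and 8.50 with DMSO, 6.18-fold higher with SMIP004 (log2 difference 2.63, standard error 0.121, adjusted p = 6.16e-06). Its BTZ and DMSO samples lay close together (BTZ minus DMSO -0.08, adjusted p = 0.58). EDEM2, a mannosidase that marks glycoproteins for removal, measured 10.53 and 10.41 with SMIP004 and 8.67 and 8.54 with BTZ (log2 difference 1.86, standard error 0.264, adjusted p = 0.000826). MAN1B1, another mannosidase, measured 9.71 and 9.76 with SMIP004, 9.74 and 9.64 with DMSO and 7.34 and 7.80 with BTZ, so here too the BTZ samples were the low ones. ER to Golgi transport had 25 of 44 genes higher with SMIP004 and 2 with BTZ (median 0.559). PREB, which loads the COPII coat, measured 10.31 and 10.39 with SMIP004 and 7.97 and 8.12 with BTZ (log2 difference 2.31, standard error 0.149, adjusted p = 2.3e-05), and KDELR3, a retrieval receptor for ER residents, was at least 2.32-fold higher with SMIP004. SEC24D, a COPII cargo adaptor, measured 11.50 and 11.60 with SMIP004, 9.92 and 9.88 with BTZ and 8.47 and 8.66 with DMSO, above vehicle with both compounds.

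**Figure D4:**
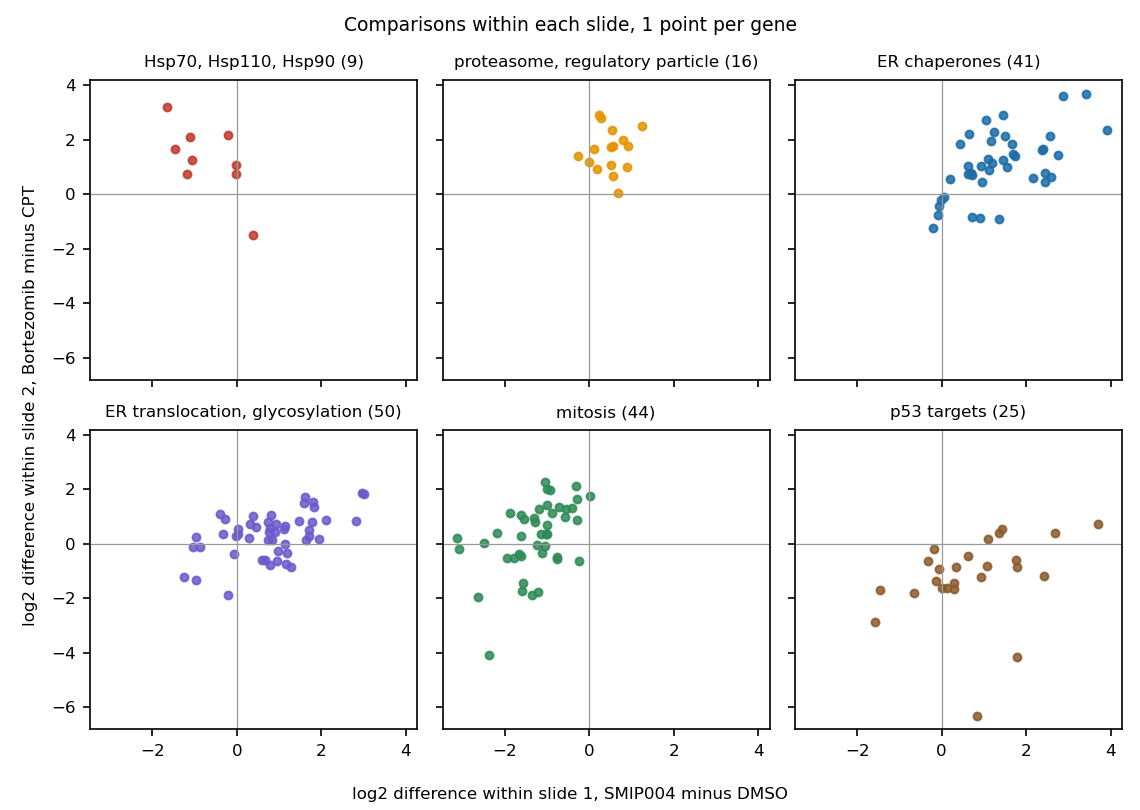
Each point is 1 gene of the list named above its panel, with SMIP004 minus DMSO (within slide 1, x axis) against BTZ minus CPT (within slide 2, y axis), both log2 differences. The Hsp70, Hsp110 and Hsp90 genes lie mostly at the upper left (5 of 9 below DMSO, 8 above CPT), and the ER chaperones mostly at the upper right (34 of 41 above DMSO, 30 above CPT).

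The UPR factors XBP1, ATF6 and ATF4 themselves differed by less than 2-fold. XBP1 measured 14.12 and 14.14 with SMIP004, 13.37 and 13.34 with BTZ and 12.47 and 12.54 with DMSO (log2 difference 0.78, standard error 0.149, adjusted p = 0.00326). ATF6 measured 11.85 and 11.99 with SMIP004, 11.46 and 11.42 with BTZ and 9.92 and 9.99 with DMSO (log2 difference 0.48, standard error 0.156, adjusted p = 0.0332). ATF4 measured 14.88 and 14.88 with SMIP004, 14.39 and 14.19 with BTZ and 13.88 and 13.91 with DMSO (log2 difference 0.59, standard error 0.12, adjusted p = 0.00445). All were highest with SMIP004 and lowest in vehicle. The ATF6 call was lost when any sample other than a roscovitine one was left out, with adjusted p between 0.0531 and 0.174, and the ATF4 call with scaling to 1 median (adjusted p = 0.0722) or by its second brightest probe (difference 0.36, adjusted p = 0.107). DDIT3 (CHOP), a factor of stress-induced death, measured 13.42 and 13.42 with SMIP004 and 12.68 and 12.84 with BTZ, from 7.64 and 7.65 with DMSO. The samples did not overlap, but the difference of 0.66 did not pass (standard error 0.662, 95% interval -0.87 to 2.19, adjusted p = 0.443). Without the roscovitine samples the adjusted p was 0.000164. Of 18 genes of UPR and related stress sensors and factors 8 were higher with SMIP004 and 3 with BTZ, and the 8 were fewer without SMIP004 sample 2. Of the UPR sensors, ATF6 was among the 18, and the genes of IRE1 and PERK were not. The 8 included CEBPB (13.63 and 13.70 with SMIP004, 12.39 and 12.56 with BTZ). They also included CREB3L2, a membrane-bound relative of ATF6 (11.70 and 11.65 with SMIP004 and 10.14 and 10.32 with BTZ).

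Of 28 targets of ATF4 and CHOP 14 were higher with SMIP004 and 2 with BTZ (median 0.656). SLC6A9, a glycine transporter, measured 9.33 and 9.29 with SMIP004 and was undetected with BTZ (5.99 and 5.97), at least 5.58-fold higher. CHAC1, which degrades glutathione, measured 8.35 and 8.37 with SMIP004 and was undetected with BTZ, at least 2.89-fold higher. The secreted glycoprotein STC2 measured 11.50 and 11.51 with SMIP004 and 9.31 and 9.52 with BTZ (log2 difference 2.09, standard error 0.119, adjusted p = 1.56e-05), and the mTORC1 inhibitor DDIT4 12.81 and 12.77 with SMIP004 and 11.09 and 11.13 with BTZ (log2 difference 1.68, standard error 0.244, adjusted p = 0.000907). Of 15 serine, glycine, asparagine, proline and one-carbon genes 9 were higher with SMIP004 and 1 with BTZ (median 0.638), and of 18 cytosolic aminoacyl-tRNA synthetases 11 and 2 (median 0.579). ASNS, asparagine synthetase, measured 14.18 and 14.14 with SMIP004, 12.47 and 12.53 with BTZ and 11.83 and 11.80 with DMSO (log2 difference 1.66, standard error 0.112, adjusted p = 2.84e-05). PSAT1, an enzyme of serine synthesis, measured 13.18 and 13.25 with SMIP004, 12.18 and 12.28 with DMSO and 11.51 and 11.65 with BTZ, above vehicle with one compound (0.98) and below it with the other (-0.65). WARS1, the tryptophan synthetase of transfer RNA, was 2.9-fold higher with SMIP004 and HARS1, that of histidine, 2.43-fold higher with BTZ. The 11 synthetases were 5 to 7 whenever a SMIP004 or BTZ sample was left out.

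The ATF4 motif TGATGNAA, a C/EBP-ATF response element, was in 46.7% of synthetase promoters (7 of 15: AARS1, CARS1, GARS1, IARS1, MARS1, NARS1 and TARS1) and 30.4% of ATF4 and CHOP target promoters (7 of 23), against 2.7% of genes tested and 4.46% of the table. HARS1 and WARS1 were not among them, although one was the synthetase farthest toward BTZ and the other the one farthest toward SMIP004. The window of ASNS at chr7:97872359-97872658 (minus strand, 1 of its 2 annotated starts) is printed as the example with the match in capitals.
ASNS: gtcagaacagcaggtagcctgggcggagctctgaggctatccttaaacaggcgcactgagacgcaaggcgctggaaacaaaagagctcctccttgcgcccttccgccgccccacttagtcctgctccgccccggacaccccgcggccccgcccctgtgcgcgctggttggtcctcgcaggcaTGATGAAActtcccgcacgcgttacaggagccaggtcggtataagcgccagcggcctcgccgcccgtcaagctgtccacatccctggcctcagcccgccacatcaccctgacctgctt

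MT2A is a metallothionein, a cysteine-rich protein that binds zinc and copper. It measured 12.83 and 12.68 with SMIP004, 8.69 and 8.61 with BTZ and 10.57 and 11.07 with DMSO. Both SMIP004 samples lay above vehicle and both BTZ samples below it, and the compounds differed 17.2-fold (log2 difference 4.10, standard error 0.537, adjusted p = 0.000554). MT1X measured 11.53 and 11.67 with SMIP004, 8.65 and 8.50 with BTZ and 11.28 and 11.14 with DMSO, so SMIP004 lay close to vehicle (difference 0.39, adjusted p = 0.545) and BTZ below it (-2.63, adjusted p = 0.00255). MT1F measured 9.94 and 9.95 with SMIP004 and 6.86 and 6.79 with BTZ (log2 difference 3.12, standard error 0.466, adjusted p = 0.00105), with 1 of 2 BTZ arrays detected. These genes are near copies of each other, so their probes may share signal. The CPT samples also had low MT1X (8.92 and 8.97) and MT1F (6.66 and 6.37), and on that slide the difference between BTZ and CPT passed for neither (adjusted p = 0.558 and 0.583). MT2A, at 10.07 and 10.11 with CPT, was lower with BTZ than with CPT (difference -1.44, adjusted p = 0.0439). The zinc transporter genes SLC30A7 and SLC39A14 were also higher with SMIP004, by 1.47 and 1.27, and in all 6 of 11 genes of the list were higher with SMIP004 and 1 with BTZ (median 1.11). The core of the metal response element, TGCACNC or TGCGCNC, is short and was in 55.6% of the list's promoters (5 of 9), 46% of genes tested and 33.4% of the table. MT2A is printed because its window at chr16:56608334-56608633 (plus strand) holds 8 matches, as many or more than which stand in 0.0256% of genes in the table.
MT2A: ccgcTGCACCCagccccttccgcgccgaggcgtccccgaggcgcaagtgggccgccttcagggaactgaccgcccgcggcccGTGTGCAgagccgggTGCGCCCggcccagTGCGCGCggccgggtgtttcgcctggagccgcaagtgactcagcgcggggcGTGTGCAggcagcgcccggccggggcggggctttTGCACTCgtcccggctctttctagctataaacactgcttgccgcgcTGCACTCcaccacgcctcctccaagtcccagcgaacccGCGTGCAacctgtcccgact

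Of 44 mitosis genes 17 were higher with SMIP004 than with BTZ and 0 lower (median 1.06, 0.988 with undetected genes at their bound). CDK1, the kinase that starts mitosis, measured 12.68 and 12.68 with DMSO, 10.28 and 10.33 with SMIP004 and was undetected with BTZ (6.63 and 6.55), so it was at least 11.1-fold higher with SMIP004 than with BTZ (adjusted p = 0.000238) while below vehicle with both. UBE2C, which helps destroy cyclins at anaphase, measured 12.33 and 12.05 with DMSO, 10.58 and 10.61 with SMIP004 and 7.51 and 7.47 with BTZ (log2 difference 3.11, standard error 0.675, adjusted p = 0.0062 between the compounds, but 0.60 by its second brightest probe and 1.85 by the mean of its probes). TOP2A, the topoisomerase that untangles chromosomes, measured 8.50 and 8.57 with SMIP004, was undetected with BTZ and was at least 3.26-fold higher with SMIP004. Against DMSO, 19 of the 44 fell and 0 rose with SMIP004, and 39 fell and 0 rose with BTZ. Within slide 2, 11 were higher and 5 lower with BTZ than with CPT, although CDK1 stood at -4.09 there. The 17 were 33 without the roscovitine samples and 6 or 7 without a SMIP004 or BTZ sample. DNA replication genes differed less, with 8 of 45 higher with SMIP004 and 1 with BTZ (median 0.068), and 31 fell with SMIP004 and 30 with BTZ against DMSO. Without roscovitine they numbered 16 and 14, and without a SMIP004 or BTZ sample 4 and 0, so this list has no settled direction.

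The motif TTTGAA of cell cycle promoters, where the DREAM complex binds, was in 66.7% of mitosis promoters (24 of 36), against 13.7% of genes tested and 18.2% of the table. CDK1 is shown as the example because its second annotated start, at chr10:60778228-60778527 (plus strand), holds 3 matches over both strands, as many or more than which stand in 0.374% of genes in the table.
CDK1: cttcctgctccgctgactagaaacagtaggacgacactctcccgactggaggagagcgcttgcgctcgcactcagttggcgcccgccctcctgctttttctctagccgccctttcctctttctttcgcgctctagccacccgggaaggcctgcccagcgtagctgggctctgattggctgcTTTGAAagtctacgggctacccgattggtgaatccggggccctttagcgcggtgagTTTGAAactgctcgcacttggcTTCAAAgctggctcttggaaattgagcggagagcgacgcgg

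Regulators of the G1 phase went both ways, with 8 of 28 genes higher with each compound. SKP2, which the cells overexpress, measured 12.70 and 12.62 with SMIP004, 15.02 and 14.86 with BTZ, 13.52 and 13.57 with DMSO and 14.44 and 14.51 with CPT. BTZ exceeded SMIP004 4.85-fold (log2 difference -2.28, standard error 0.24, adjusted p = 0.000197), but BTZ and CPT on the same slide differed by 0.47 (adjusted p = 0.118), and the array does not tell the added copy from the cell's own. CKS1B, the SKP2 cofactor needed to bind p27, went the opposite way. It measured 12.30 and 12.24 with SMIP004, 8.66 and 8.64 with BTZ and 11.36 and 10.96 with DMSO, 12.2-fold higher with SMIP004 (log2 difference 3.61, standard error 0.351, adjusted p = 0.000132). CPT samples measured 8.99 and 9.09, from which BTZ differed by -0.39 (adjusted p = 0.357), and processed copies of this gene in the genome could share its probe. CDKN1B, the gene of p27, measured 9.83 and 10.01 with SMIP004 and 8.40 and 8.60 with BTZ (log2 difference 1.42, standard error 0.207, adjusted p = 0.000938). CCND1, cyclin D1, measured 11.34 and 11.32 with SMIP004, 9.85 and 9.996 with BTZ and 13.09 and 13.10 with DMSO, below vehicle with both and lower with BTZ (log2 difference 1.41, standard error 0.115, adjusted p = 5.96e-05). E2F3, an S-phase transcription factor, measured 7.78 and 7.73 with SMIP004, 9.76 and 9.79 with BTZ and 9.75 and 9.64 with DMSO, so SMIP004 was the low group (log2 difference -2.02, standard error 0.163, adjusted p = 5.58e-05). For CDKN1A (p21), at 13.56 and 13.45 with SMIP004 and 13.84 and 13.64 with BTZ, the difference of -0.23 had a 95% interval of -1.41 to 0.94. CDK4, at 10.67 and 10.69 with SMIP004 and 11.05 and 10.99 with BTZ, differed by -0.34 (adjusted p = 0.0639, and 0.0083 without roscovitine).

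Among p53 targets 5 of 25 were higher with BTZ and 1 with SMIP004 (median -0.628), and 17 and 2 without roscovitine. PHLDA3, which restrains AKT, measured 9.46 and 9.44 with SMIP004 and 10.70 and 10.63 with BTZ. Within slides, 8 of the 25 rose and 2 fell with SMIP004 against DMSO, and 1 was higher and 12 lower with BTZ than with CPT, the DNA-damaging compound. IGFBP3, which binds insulin-like growth factors, was the 1 toward SMIP004, at 6.71 and 6.88 with SMIP004 and 4.88 and 4.92 with BTZ, where its probe was undetected (adjusted p = 0.0126, and between 0.0517 and 0.0677 without a SMIP004 or BTZ sample). By its second brightest probe the IGFBP3 difference was 0.74, against 1.89, and did not pass (adjusted p = 0.195). The dimmest detected probe on the BTZ arrays stood at 6.781 and 6.879, near the SMIP004 levels of IGFBP3, so no fold bound can be given for it.

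Antioxidant genes were led by opposite extremes. AKR1C2, an aldo-keto reductase whose near-identical relatives could share its probe, measured 10.25 and 10.21 with SMIP004, 6.99 and 7.34 with BTZ and 5.98 and 5.39 with DMSO, 8.36-fold higher with SMIP004 (log2 difference 3.06, standard error 0.425, adjusted p = 0.000746). PRDX1, a cytosolic peroxiredoxin, measured 12.14 and 12.15 with SMIP004 and 14.31 and 14.14 with BTZ, and 14.19 and 14.04 with DMSO, so SMIP004 was the low group (log2 difference -2.09, standard error 0.135, adjusted p = 2.33e-05). TXNRD1, thioredoxin reductase, measured 12.83 and 12.79 with SMIP004, 14.27 and 14.31 with BTZ and 11.56 and 11.47 with DMSO, above vehicle with both (log2 difference -1.48, standard error 0.286, adjusted p = 0.00354). HMOX1, heme oxygenase, measured 10.26 and 10.44 with SMIP004 and 12.35 and 12.40 with BTZ, from 6.99 and 6.98 with DMSO. Its difference of -2.02 did not pass (standard error 1.1, adjusted p = 0.161) until the roscovitine samples were left out (adjusted p = 2.71e-08). In all 2 of 26 NRF2 targets were higher with SMIP004 and 10 with BTZ (median -0.352), but 4 and 5 with scaling to 1 median, so no direction is settled. The element TGACNNNGC was in 47.6% of their promoters (10 of 21). NFE2L2, the gene of NRF2, was 1.49-fold higher with BTZ (log2 difference -0.58, standard error 0.133, adjusted p = 0.00817), a call lost without SMIP004 sample 1 (adjusted p = 0.0552), SMIP004 sample 2 (0.0503) or BTZ sample 1 (0.0577).

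Of the large housekeeping lists, ribosome biogenesis had 19 of 41 genes higher with BTZ and 2 with SMIP004 (median -0.41), and translation factors 19 of 42 and 2 (median -0.387). NAT10, an RNA acetyltransferase of the nucleolus, measured 9.94 and 9.73 with SMIP004 and 11.42 and 11.50 with BTZ (log2 difference -1.62, standard error 0.122, adjusted p = 4.23e-05), and the helicase gene EIF4A2 12.39 and 12.52 with SMIP004 and 14.05 and 14.27 with BTZ (log2 difference -1.70, standard error 0.129, adjusted p = 4.32e-05). EIF4EBP1, the translation repressor that ATF4 also drives, measured 7.89 and 7.73 with SMIP004 and was undetected with BTZ (5.98 and 5.36), at least 1.98-fold higher with SMIP004. Cytosolic ribosomal proteins were 26 of 66 toward BTZ and 2 toward SMIP004, but 12 and 2 with scaling to 1 median, and 13 to 17 toward BTZ without a SMIP004 or BTZ sample. The elongation factor EEF1A1, at 15.70 and 15.65 with SMIP004 and 15.70 and 15.64 with BTZ, differed by 0.01 (95% interval -0.25 to 0.26). Respiratory chain and ATP synthase genes were 23 of 62 toward SMIP004 and 8 toward BTZ (median 0.16), with small differences such as 0.96 for the complex I subunit NDUFB10 (12.06 and 12.03 with SMIP004, 11.14 and 11.03 with BTZ, 12.97 and 12.90 with DMSO), and the 23 were 9 or 10 whenever a SMIP004 or BTZ sample was left out. Histone genes with a poly(A) signal had 6 of 16 higher with SMIP004 and 0 with BTZ. H4C3 measured 14.82 and 14.76 with SMIP004 and 11.74 and 11.93 with BTZ (log2 difference 2.96, standard error 0.482, adjusted p = 0.00159), though histone copies are alike and the 6 were 3 without a SMIP004 or BTZ sample.

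Of 30 autophagy genes 12 were higher with BTZ and 4 with SMIP004, but 4 and 6 with scaling to 1 median, so this list has no settled direction either. SQSTM1 (p62), the receptor for ubiquitin-tagged cargo, measured 9.97 and 9.76 with SMIP004, 11.41 and 11.41 with BTZ and 9.22 and 9.09 with DMSO, highest with BTZ (log2 difference -1.54, standard error 0.132, adjusted p = 7.38e-05). WIPI1, which binds lipids of the forming autophagosome, measured 11.29 and 11.27 with SMIP004, 8.85 and 8.78 with BTZ and 6.25 and 6.17 with DMSO, highest with SMIP004 (log2 difference 2.47, standard error 0.165, adjusted p = 2.72e-05). Of 41 lysosome genes 13 were higher with BTZ and 5 with SMIP004 (1 to 3 without a SMIP004 or BTZ sample). GLA, the α-galactosidase, was 6.02-fold higher with BTZ (log2 difference -2.59, standard error 0.108, adjusted p = 4.58e-06), and LIPA, the acid lipase, 11.88 and 11.80 with SMIP004 and 9.34 and 9.42 with BTZ (log2 difference 2.46, standard error 0.11, adjusted p = 6.16e-06), the other direction. Of 22 androgen-regulated genes 4 were higher with SMIP004 and 5 with BTZ, and 6 and 2 with scaling to 1 median. KLK2, KLK3 and KRT18 of this list were detected on no array of either compound. KRT18 is nevertheless among the 5 and has no measured level here. TMPRSS2, a protease gene of this list, measured 8.62 and 8.73 with SMIP004, 10.02 and 9.86 with BTZ and 12.81 and 12.77 with DMSO (log2 difference -1.27, standard error 0.135, adjusted p = 0.000208), below vehicle with both compounds.

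Several of the largest differences lay outside these lists. ANG, the secreted ribonuclease angiogenin, measured 12.50 and 12.44 with SMIP004, 7.94 and 8.12 with BTZ and 8.93 and 8.95 with DMSO, 21.7-fold higher with SMIP004 (log2 difference 4.44, standard error 0.128, adjusted p = 1.24e-06). No gene detected on every array of both groups differed more in either direction. SERPINA3, an acute phase protease inhibitor, measured 10.10 and 10.08 with SMIP004 and was undetected with BTZ (5.43 and 5.76), at least 9.58-fold higher. SLPI, another secreted protease inhibitor, measured 10.42 and 10.23 with SMIP004 and 7.12 and 7.24 with BTZ, and 6.36 and 6.21 with DMSO (log2 difference 3.14, standard error 0.144, adjusted p = 6.16e-06). FBXO4, an F-box subunit of ubiquitin ligases, measured 10.85 and 10.82 with SMIP004 and 7.07 and 7.38 with BTZ (log2 difference 3.61, standard error 0.309, adjusted p = 7.32e-05). DMSO samples measured 9.08 and 9.02 for FBXO4, so SMIP004 lay above vehicle and BTZ below it, as for ANG. CPT samples, on the BTZ slide, were also below vehicle for FBXO4, at 7.68 and 7.87. On the BTZ side, POP1, a subunit of the RNase that trims transfer RNA, was undetected with SMIP004 (6.18 and 6.36) and measured 9.86 and 9.91, at least 11.1-fold higher. GCNT3, a mucin glycosyltransferase, measured 7.71 and 7.84 with SMIP004, 10.25 and 10.50 with BTZ and 4.76 and 4.73 with DMSO, above vehicle with both (log2 difference -2.60, standard error 0.158, adjusted p = 1.82e-05). ZC3H12A, an RNase that degrades inflammatory transcripts, measured 7.49 and 7.68 with SMIP004 and 10.27 and 10.18 with BTZ, with SMIP004 close to DMSO (7.57 and 7.65).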

How the data were processed

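Total RNA was amplified, biotin-labelled and hybridised to Illumina HumanRef-8 v2 BeadChips, on 12 arrays for 10 biological samples because each SMIP004 sample was measured on 2 arrays. The authors deposited an unnormalised intensity, averaged over the beads of a probe, with a detection p-value against the negative controls of the array, and a second table of log2 values, quantile-normalised over all arrays, which served as an alternative. Software versions are not given in the sources used here.

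Intensities were background-corrected, quantile-normalised and log2-transformed with neqc of limma 3.58.1 in R 4.3.3 (offset 16, detection p-values in place of control probes), and the 2 arrays of a SMIP004 sample were averaged. Of 24526 probes, 2692 without a single gene symbol were left out. A probe was kept where all arrays of some group gave it a detection p-value under 0.01 (11111 probes). Each of 8783 genes was represented by its kept probe with the highest mean over groups, and 1141 genes had several. All 10 samples entered 1 limma fit (lmFit, then eBayes) with the 5 groups as its terms (5 residual and 2.95 prior degrees of freedom), with Benjamini-Hochberg adjustment over all genes. The code was tested on simulated data. Gene symbols came from the platform annotation, updated through gene identifiers, of which 99.9% matched. ERN1 was not analysed here. Figures were drawn with matplotlib 3.10.9.

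Genes were picked from sets fixed by rule, and not every gene of a set is named in the text. One set was the 15 largest differences in each direction among genes detected on every array of both groups. Another was the 8 largest bounds in each direction. From each list came up to 5 members past the threshold and the 2 with the smallest difference. The last sets were the 10 largest among genes past the threshold against DMSO in opposite directions, and genes the study follows. Cell type markers, CANX and genes named only for a promoter motif fall outside these sets. The gene lists and the comparison itself were chosen with earlier results of these data known. Same-numbered samples of different groups did not deviate together (correlations of deviations between -0.188 and 0.0924), so the numbers were not used to pair samples.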

Additional observations from a re-analysis of the deposited data

Results flagged for a closer look

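With 2 samples per group no sample could be tested as standing far from the others. The 10 genes with the largest differences among those that passed against DMSO in opposite directions were looked at again. The values of both compounds against DMSO use the same DMSO samples, and for BTZ they cross slides. Higher with SMIP004 were ANG (4.44, with 3.54 for SMIP004 minus DMSO and -0.91 for BTZ minus DMSO), MT2A (4.10, with 1.94 and -2.17), the T-cell transcription factor gene BCL11B (3.78, with 3.10 and -0.68), TRIM2 (3.62, with 1.83 and -1.79), CKS1B (3.61, with 1.11 and -2.51) and FBXO4 (3.61, with 1.79 and -1.83). Higher with BTZ were DNAJB1 (-4.22, with -0.92 and 3.29), HSPH1 (-4.09, with -1.66 and 2.43), POP1 (-3.61, with -1.49 and 2.12) and TFPI, an inhibitor of blood clotting (-3.60, with -1.44 and 2.16).

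Probes that carry no single gene name were in no comparison of the report. Of 962 such probes that were kept, 453 passed the threshold, 207 higher with SMIP004 and 246 higher with BTZ. Probe ILMN_1776602 differed by 4.82 (11.76 and 11.70 with SMIP004, 6.89 and 6.92 with BTZ) and probe ILMN_2408572 by 4.54 (9.74 and 9.54 with SMIP004, 5.18 and 5.02 with BTZ).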

How the results depend on the processing

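With 2 samples per group and 1 slide per compound, the number of genes past the threshold moved with the setting. Against 4312 genes that differed between SMIP004 and BTZ (2157 and 2155 in the 2 directions), the number was 1925 at 2-fold and an unadjusted p of 0.05 (1094 and 831) and 1380 when tested against 1.5-fold (800 and 580). Scaling to 1 median gave 3917, of which 2663 were higher with SMIP004 and 1254 higher with BTZ. Among probes detected on every array of both groups 3374 of 6630 genes passed, 1540 higher with SMIP004 and 1834 higher with BTZ. Leaving out 1 sample gave 2790 to 6127 in all, 1458 to 3022 higher with SMIP004 and 1325 to 3105 higher with BTZ. The lowest counts were without SMIP004 sample 1 (2813) or 2 (2790) and the highest without a roscovitine sample. The 2 groups alone gave 6357. For SMIP004 against DMSO (5144, 2522 higher and 2622 lower) the 2-fold rule gave 2736 (1367 and 1369), the 1.5-fold test 2288 (1161 and 1127), and leaving out 1 sample 3744 to 6624 (1866 to 3226 higher, 1878 to 3398 lower). For BTZ against CPT (5757, 2882 higher and 2875 lower) these were 3466 (1659 and 1807), 3248 (1537 and 1711) and 4822 to 6978 (2379 to 3483 higher, 2443 to 3495 lower), and 1826 were lower among probes detected on every array of both compounds. The compounds of that last filter were SMIP004 and BTZ, and it did not ask for detection with CPT. The cause of these moves was not tested.

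Across the deposited log2 values, no filter on dim probes, probe choice, moderation and the handling of technical arrays, the SMIP004 and BTZ comparison gave 4261 to 4732 calls. The 4732, without the filter on dim probes, were 28% of 16922 genes, against 49.1% of 8783 genes with it. The replicate block, which pairs samples by number, gave 4155, of which 4102 were called without it. Of the 146 genes named in the text, 120 were run under all 24 alternatives and 26, not detected on every array of both compounds, under 23. 118 kept their call under every alternative run for them. Of the genes that had passed 0 changed direction, and of those that had not 0 passed in the opposite direction. Differences that had not passed could change sign, as HSPA5 did between -0.23 and 0.12 when 1 sample was left out. The counts toward BTZ of core and regulatory proteasome subunits, Hsp70, J-domain and BAG genes, and those toward SMIP004 of ER chaperones, ER-associated degradation, translocation, ER to Golgi transport and ATF4 targets, moved by no more than 1.5 times when any 1 sample was left out.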

Other observations

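Metabolic genes divided between the compounds gene by gene. SRM, spermidine synthase, measured 12.08 and 11.84 with SMIP004 and 9.80 and 9.75 with BTZ (log2 difference 2.18, standard error 0.147, adjusted p = 2.78e-05), with DMSO at 11.65 and 11.61, so BTZ was the low group. AZIN1, which protects ornithine decarboxylase from degradation, measured 12.27 and 12.18 with SMIP004 and 13.35 and 13.19 with BTZ, the other direction (log2 difference -1.04, standard error 0.116, adjusted p = 0.000257), and 5 of 13 polyamine genes were higher with BTZ and 1 with SMIP004. HMGCS1, an early enzyme of cholesterol synthesis, measured 11.18 and 11.16 with SMIP004, 12.41 and 12.41 with BTZ and 11.32 and 11.45 with DMSO (log2 difference -1.24, standard error 0.138, adjusted p = 0.000259), while SQLE, a later enzyme of the same pathway, measured 10.91 and 10.91 with SMIP004, 9.88 and 9.81 with BTZ and 11.11 and 11.28 with DMSO (log2 difference 1.07, standard error 0.171, adjusted p = 0.00148). Of 17 cholesterol genes 6 were higher with SMIP004 and 4 with BTZ. ACLY, which supplies acetyl-CoA for lipid synthesis, measured 11.18 and 11.17 with SMIP004, 11.23 and 11.11 with BTZ and 12.88 and 12.96 with DMSO, far below vehicle with both compounds and with a difference between them of 0.01 (95% interval -0.63 to 0.64). ALDOA, a glycolytic aldolase, was 2.44-fold higher with BTZ (12.37 and 12.45 with SMIP004 and 13.70 and 13.69 with BTZ), and of 21 glycolysis genes 9 were higher with BTZ and 2 with SMIP004 (5 and 4 with scaling to 1 median, and 4 to 6 toward BTZ without a SMIP004 or BTZ sample). The 5 polyamine genes were then 3 or 4, and the 6 cholesterol genes 3 to 5.

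Mitochondrial and splicing genes went both ways too. CLPX, the unfoldase of a matrix protease, measured 9.69 and 9.78 with SMIP004 and 11.17 and 11.22 with BTZ (log2 difference -1.46, standard error 0.144, adjusted p = 0.000143), and HSPE1, the cochaperonin of the matrix, 10.20 and 10.24 with SMIP004 and 11.92 and 11.91 with BTZ (log2 difference -1.69, standard error 0.149, adjusted p = 8.31e-05), where DMSO samples measured 12.31 and 12.33. TIMM17B, a subunit of the inner membrane import channel, was 2.67-fold higher with SMIP004 (9.22 and 9.11 with SMIP004 and 7.59 and 7.89 with BTZ), and of 31 mitochondrial chaperone, import and protease genes 7 were higher with SMIP004 and 9 with BTZ. Of 70 mitochondrial ribosomal protein genes 13 and 16 were, and 19 and 8 with scaling to 1 median. SF3B5, a small subunit of a splicing complex that finds branch points, measured 13.07 and 13.02 with SMIP004, 10.83 and 10.77 with BTZ and 11.98 and 11.96 with DMSO (log2 difference 2.25, standard error 0.115, adjusted p = 9.65e-06). It ran against its list, in which 17 of 49 spliceosome genes were higher with BTZ and 3 with SMIP004 (8 and 6 with scaling to 1 median, and 8 to 14 toward BTZ without a SMIP004 or BTZ sample). TUBB3, a neuronal β-tubulin, measured 10.20 and 10.15 with SMIP004, 11.34 and 11.66 with BTZ and 8.05 and 8.17 with DMSO (log2 difference -1.32, standard error 0.223, adjusted p = 0.00188), above vehicle with both, while TUBA4A, an α-tubulin, measured 10.16 and 10.20 with SMIP004, 12.003 and 12.25 with BTZ and 12.51 and 12.33 with DMSO (log2 difference -1.95, standard error 0.368, adjusted p = 0.00318), lower with SMIP004 than with DMSO or BTZ. Tubulin genes are alike in sequence, so their probes may share signal.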
